A study of Mus musculus with 30 samples.

Results

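CD11b+ cells taken from EL-4 tumors were compared with CD11b+ cells from the spleens of healthy C57BL/6 mice, using the 6 arrays titled as C57BL/6 EL-4 tumor replicates 1 to 3 and C57BL/6 healthy spleen replicates 1 to 3, out of 30 arrays in the series. The series measured gene expression in CD11b+ mouse cells, enriched with immunomagnetic beads, from 10 groups of 3 arrays covering tumors, spleens and bone marrow, and its text names healthy spleen as the baseline for the tumor-induced cells. The EL-4 cells were labelled as the tumor infiltrate of tumor-bearing C57BL/6 mice, and the spleen cells as the spleen of healthy C57BL/6 mice. Beside these, the CD11b+ infiltrate of MCA203 tumors (C57BL/6 mice, 3 arrays), the CD11b+ infiltrate of 4T1 tumors (BALB/c mice, 3 arrays) and CD11b+ cells from healthy BALB/c spleen (3 arrays) were used to ask where the EL-4 infiltrate differed from other tumors. EL-4 is a T cell lymphoma line of C57BL/6 origin, MCA203 a fibrosarcoma line of the same strain and 4T1 a mammary carcinoma line of BALB/c origin. The labels used here give no age, tumor site, time after injection or purity, and do not say whether the 3 replicates of a group are separate mice, so p-values measure the spread between arrays, which may be technical.

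CD11b, the integrin alpha chain encoded by Itgam, is carried by neutrophils, monocytes and most macrophages, and by some dendritic cells and natural killer (NK) cells. In tumor-bearing mice, immature granulocytes and monocytes that restrain T cells are called myeloid-derived suppressor cells (MDSC), and monocytes that enter a tumor can become macrophages there. Arginine breakdown by arginase, nitric oxide made by the inducible synthase, checkpoint ligands and interleukin 10 are the best known means by which such cells restrain T cells. The healthy spleen holds its own CD11b+ cells, among them neutrophils, patrolling monocytes and part of the red pulp macrophages that recycle iron. The EL-4 and spleen groups differ in organ as well as in tumor bearing, and the effects of these cannot be told apart.

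Several checks came before the comparisons. The title and strain label of the spleen arrays say C57BL/6, whereas their source and description text say BALB/c. H2-Ea, an MHC class II alpha chain gene that C57BL/6 mice do not express, had log2 levels of 6.23 to 6.63 on the EL-4 arrays and 6.61 to 6.93 on these spleen arrays, against 12.81 to 13.05 on the arrays from healthy BALB/c spleen. On this gene the 3 spleen arrays went with the C57BL/6 label, which was used. Itgam itself had levels of 9.31, 10.07 and 9.58 on the EL-4 arrays and 9.79, 9.25 and 9.47 on the spleen arrays, so that the groups overlapped. The mean level of 10 general CD11b+ myeloid genes was 11.76 to 11.92 on the EL-4 arrays and 11.68 to 11.89 on the spleen arrays. All levels are log2 values after robust multi-array averaging (RMA), which brings arrays to a common distribution, and 1 unit is a 2-fold difference in signal.

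The library of EL-4 replicate 1 stood apart. In the EL-4 group, 140 of 18194 genes spanned more than 2 log2 units between the 3 arrays, and 130 of these were highest in replicate 1, while 7 genes spanned as much in the spleen group. Krt8, a keratin of simple epithelia, had levels of 11.76, 7.43 and 8.78 in EL-4 replicates 1 to 3, against 4.39, 4.21 and 4.73 on the spleen arrays. Wfdc2, an epithelial secreted protein, had 11.72, 6.60 and 7.95, and Foxa1, a transcription factor of glandular epithelia, had 9.32, 4.79 and 6.23 in the same replicates. The milk-protein gene Csn3 (9.80, 5.70 and 6.99) and the progesterone receptor gene Pgr (8.45, 3.84 and 5.20) followed the same order across the 3 EL-4 arrays. These 4 last genes were chosen after their values were seen. Against spleen, Csn3 and Pgr differed by 3.61 and 2.66 on these probe sets, but by 0.11 and by 0.18 to 0.24 on their other probe sets. A smaller set was highest in replicate 2, such as Lyve1, a hyaluronan receptor of resident macrophages and lymphatic vessels, at 8.80, 11.47 and 10.25. Replicate correlations over all 45101 probe sets were 0.983 to 0.991 in the EL-4 group and 0.992 to 0.995 in the spleen group. Counts and genes that depend on replicate 1 are given below without it.

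**Figure D1:**
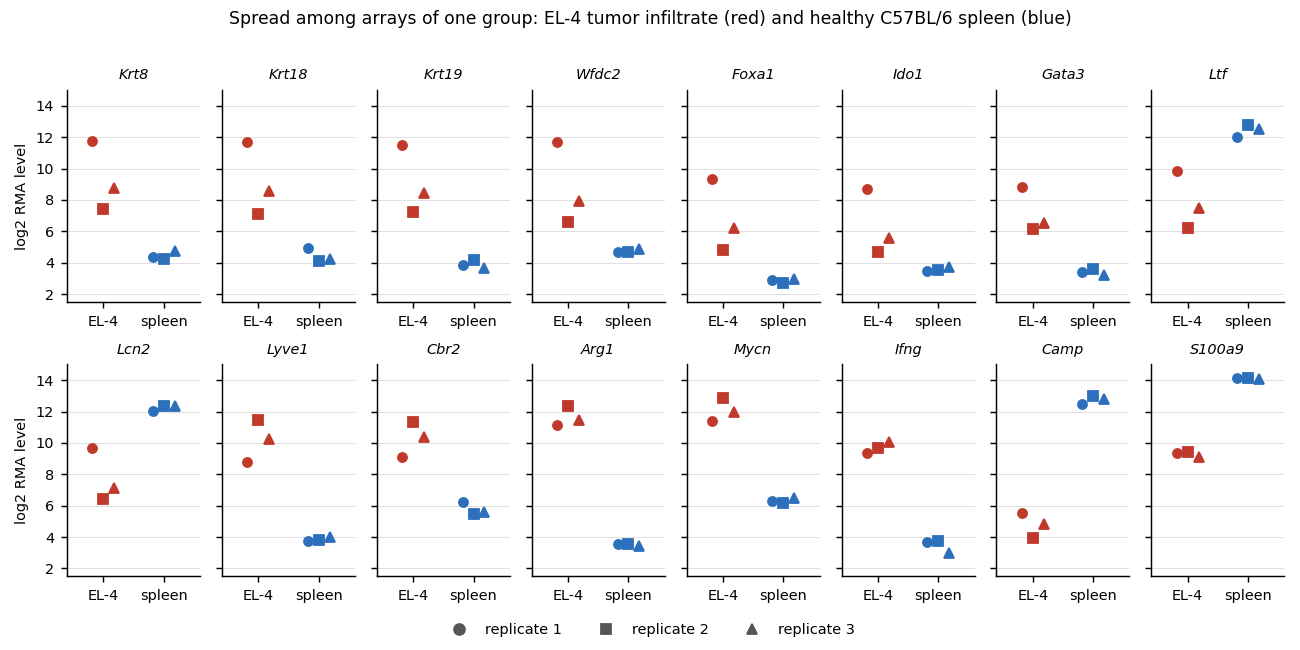
Log2 RMA level of 16 genes on each of the 3 EL-4 arrays, 1 point per array, with the healthy spleen arrays beside them. Keratins, Wfdc2, Foxa1 and Ido1 are highest in replicate 1 and Lyve1 and Cbr2 in replicate 2, whereas Arg1, Mycn, Ifng and S100a9 lie within 2 log2 units across the replicates.

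Of 18194 genes tested, 1968 (10.8%) were called, meaning a Benjamini-Hochberg adjusted p below 0.05 in limma and at least a 2-fold difference. The EL-4 infiltrate was higher for 1168 genes (6.42% of those tested) and lower for 800 (4.40%). The median difference over all genes was 0.02 on the log2 scale, and for 9142 genes (50.2%) the 3 arrays of each group did not overlap. Counts of called list members below are read against these shares. At least 4 log2 units separated the groups for 41 genes that were higher and 14 that were lower in EL-4 tumors. Housekeeping genes averaged 10.32 to 10.42 on the EL-4 arrays and 10.04 to 10.12 on the spleen arrays. Centring each array on them moved all differences down by 0.31 and gave 2112 calls, 696 higher and 1416 lower in EL-4 tumors, so that 33.0% of calls were higher instead of 59.3%. Without EL-4 replicate 1 there were 1918 calls, 1086 higher (5.97%) and 832 lower (4.57%), of which 1762 were also called in the same direction with it.

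**Figure D2:**
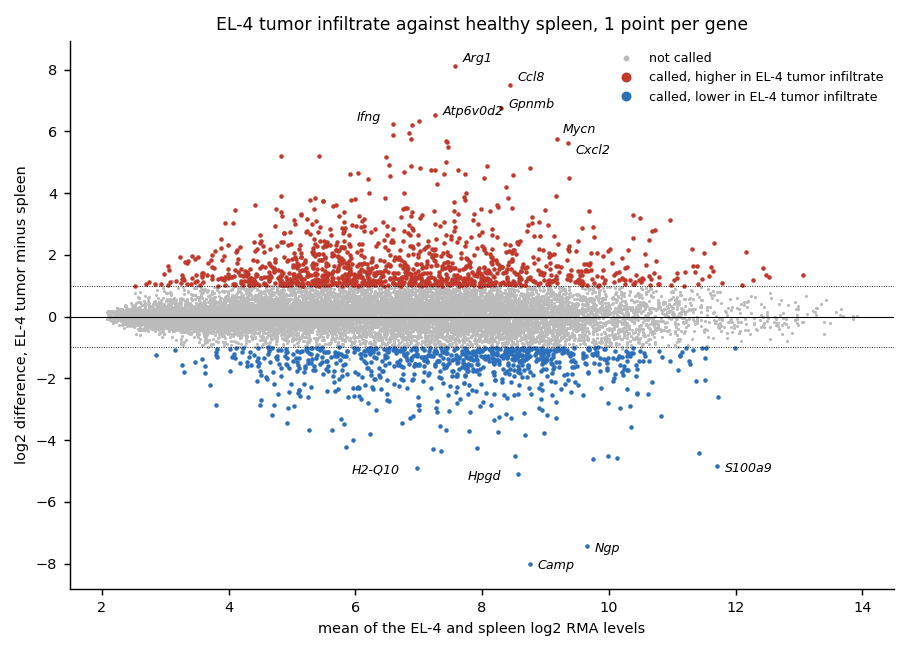
Each point is 1 of 18194 genes; the horizontal axis is the mean of its EL-4 and spleen log2 RMA levels and the vertical axis the log2 difference, EL-4 minus spleen. The 1168 genes called higher and the 800 called lower in EL-4 tumors are coloured, and Arg1 at the top and Camp at the bottom lie about 8 log2 units from 0.

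Arg1 showed the largest rise of any gene named by the rule. Arg1, the arginase that removes arginine from the surroundings of T cells, had levels of 11.17, 12.33 and 11.43 on the EL-4 arrays, against 3.58, 3.53 and 3.43 on the spleen arrays. The groups did not overlap, and the difference was 8.13 ± 0.35 (SE; 280-fold, adjusted p = 1.07e-15). Slc7a2, the cationic amino acid transporter that brings arginine into macrophages, was 3.55 ± 0.42 higher, at 9.45 to 10.36 in EL-4 tumors and 6.39 to 6.56 in spleen. Arg2, the mitochondrial arginase, went the other way, with 7.72, 6.57 and 6.09 on the EL-4 arrays against 8.92, 8.59 and 8.54 on the spleen arrays (-1.89 ± 0.29).

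Other effectors of T cell restraint were also higher in the EL-4 infiltrate. Nos2, the inducible nitric oxide synthase, had 6.86, 8.24 and 7.69 on the EL-4 arrays, against 4.63, 4.64 and 4.71 on the spleen arrays (2.93 ± 0.29, adjusted p = 1.65e-08). Il10, an anti-inflammatory cytokine, had 6.52, 7.08 and 6.19 against 3.77, 3.22 and 3.38 on the spleen arrays (3.14 ± 0.23, adjusted p = 7.35e-11). In neither gene did the groups overlap. Ptgs2, the inducible cyclooxygenase of prostaglandin synthesis, rose by 3.07 ± 0.50, and its spleen arrays varied widely, at 7.45, 8.72 and 5.89. The PD-1 ligand genes Pdcd1lg2 and Cd274 rose by 2.58 ± 0.26 and 1.52 ± 0.23. Ido1, which degrades tryptophan, was called at 2.76 ± 0.53, but its EL-4 levels were 8.72, 4.71 and 5.61, and without replicate 1 the difference was 1.57. Nt5e, which makes adenosine, was called at 1.22 ± 0.34, while its other 2 probe sets gave -0.11 to 0.22. In the list of 20 arginine and suppressive genes, 11 were called higher and 1 lower, with a median difference of 1.37. Il4ra, the interleukin 4 receptor chain, was higher by 1.36 ± 0.31, although 1 of its other probe sets gave 0.28. Cebpb, a transcription factor tied to emergency myelopoiesis, was 0.88 ± 0.17 higher with an adjusted p of 0.000327, short of the 2-fold rule.

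**Figure D3:**
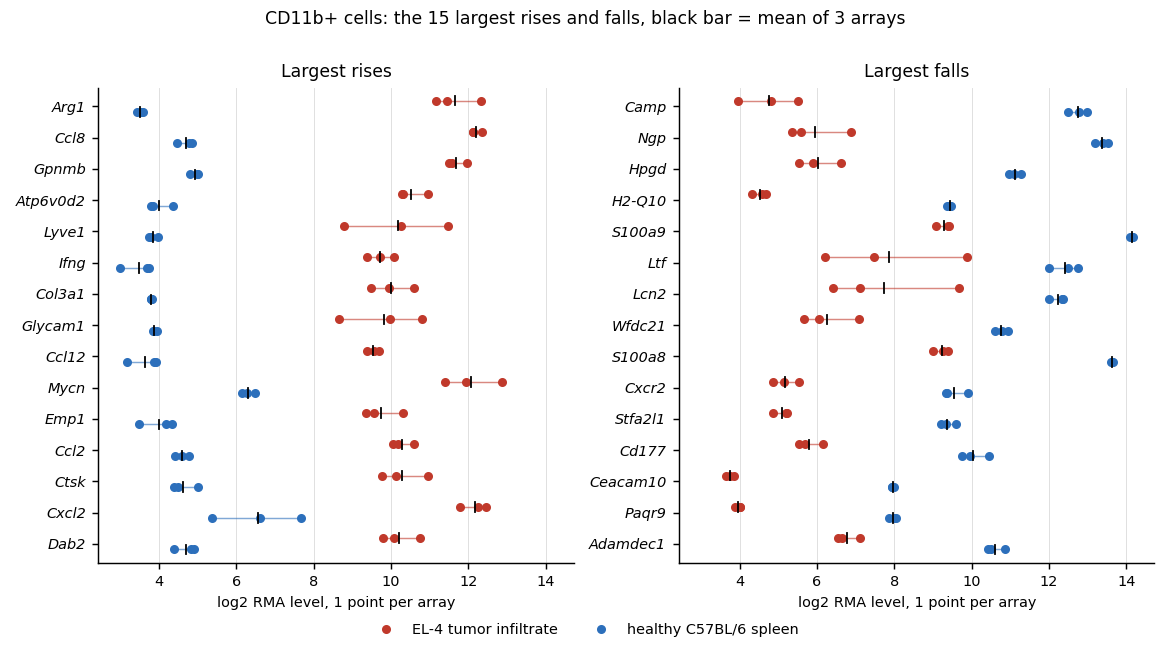
Log2 RMA level on each array for the 15 largest rises and the 15 largest falls, with the 3 EL-4 points above the 3 spleen points of each gene. Arg1, Ccl8 and Gpnmb lead the rises and Camp, Ngp and Hpgd the falls, and in every gene drawn the 2 groups do not overlap.

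Genes of neutrophil granules formed the largest falls. Camp, the cathelicidin of secondary granules, had levels of 5.51, 3.94 and 4.80 on the EL-4 arrays, against 12.50, 12.99 and 12.78 on the spleen arrays, a difference of -8.00 ± 0.31 (256-fold lower, adjusted p = 2.43e-16). Ngp, another secondary granule protein, had 6.88, 5.34 and 5.59 against 13.18, 13.54 and 13.41 in spleen (-7.44 ± 0.38). S100a9, a subunit of calprotectin, the abundant calcium-binding protein of neutrophils and monocytes, had 9.37, 9.41 and 9.09 against 14.17, 14.14 and 14.10 in spleen (-4.85 ± 0.15, adjusted p = 1.75e-18). No EL-4 array came near a spleen array for these 3 genes. S100a8, the partner of S100a9, fell by 4.41 on the log2 scale. Fewer cells of a type and less RNA per cell cannot be told apart in such bulk samples.

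Within the list of 18 later-granule and mature neutrophil genes, 15 were called lower and 0 higher, with a median of -3.98. The iron-binding granule proteins Ltf (-4.57 ± 0.49) and Lcn2 (-4.50 ± 0.44) fell too. Their EL-4 levels were highest in replicate 1 (Ltf 9.87, 6.21 and 7.46, Lcn2 9.67, 6.41 and 7.11), and without it the differences were -5.58 and -5.47. Cd177, a neutrophil surface protein, fell by 4.25, Wfdc21, a small secreted granulocyte protein, by 4.50, and the collagenase gene Mmp8 by 3.71. Mmp9, a gelatinase of tertiary granules, was not called, with 9.14, 10.69 and 9.23 on the EL-4 arrays and 10.73, 10.64 and 10.79 on the spleen arrays. Primary granule genes, made at the promyelocyte stage, were called lower for 6 of 8, with a median of -1.48. Among them were Elane, neutrophil elastase (-1.89 ± 0.39), Mpo, myeloperoxidase (-1.91 ± 0.39), and Fcnb, a ficolin of granulocyte precursors (-2.69 ± 0.37). Without EL-4 replicate 1, Prtn3 and Serpinb1a lost their calls and 4 remained. Others among the 15 largest falls were Stfa2l1, a stefin-like protease inhibitor (-4.28 ± 0.37), and Ceacam10, a cell adhesion family member (-4.21 ± 0.44). Outside the granule genes, H2-Q10, a nonclassical MHC class I gene, had 4.68, 4.57 and 4.31 on the EL-4 arrays, against 9.45, 9.37 and 9.47 on the spleen arrays (-4.91 ± 0.19), and Paqr9 and Adamdec1, a protease of tissue macrophages, fell by 3.99 and 3.83. The mean level of the later-granule list was 7.45 to 7.82 on the EL-4 arrays and 11.16 to 11.33 on the spleen arrays.

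The receptor that guides neutrophils and its ligands moved in opposite directions. Cxcr2, the neutrophil receptor for the CXC chemokines below, had 4.85, 5.53 and 5.13 on the EL-4 arrays, against 9.90, 9.36 and 9.33 on the spleen arrays (-4.36 ± 0.36, adjusted p = 4.75e-10). Cxcl2, a CXCR2 ligand, had 12.46, 12.24 and 11.79, against 6.62, 7.66 and 5.36 in spleen (5.61 ± 0.37, 49.0-fold). Cxcl3, a further ligand, rose by 5.21 ± 0.21. The groups of all 3 genes were apart. Cxcl1 was not called on its brightest probe set (0.44 ± 0.18), although its other 2 probe sets gave 2.82 to 5.36. Cxcl5 (0.38 ± 0.22), Ppbp (0.19 ± 0.53) and Cxcl15 (0.84 ± 0.33) were not called. Cxcl15 did pass with the mean of its probe sets (1.69), and without EL-4 replicate 2 (1.18) or 3 (1.17). Csf3r, the receptor for the granulocyte growth factor G-CSF, fell by 2.34 (SE 0.24).

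Of the genes of monocytes, the chemoattractants changed most. Ccl8, a ligand of several CC receptors, had 12.11, 12.35 and 12.13 on the EL-4 arrays, against 4.85, 4.47 and 4.77 on the spleen arrays (7.50 ± 0.33, 181-fold, adjusted p = 2.34e-15). Ccl2, the main ligand of CCR2, had 10.18, 10.59 and 10.05, against 4.58, 4.40 and 4.78 in spleen (5.68 ± 0.33). Ccl12 and Ccl7, related CCR2 ligands, rose by 5.90 ± 0.36 and 4.90 ± 0.28. For all 4 ligands the EL-4 and spleen arrays were well separated. Ccr2, the receptor that takes inflammatory monocytes into tissue, had 11.00, 10.83 and 11.17 on the EL-4 arrays and 11.03, 10.35 and 10.34 on the spleen arrays, which overlapped (0.43 ± 0.28). Its other 3 probe sets gave -0.54 to 0.15.

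Most other inflammatory mediators on the list were higher as well, with 14 of 23 called higher, 0 called lower and a median of 1.34. Without EL-4 replicate 1 the list had 13 called higher and 1 lower, and after housekeeping centring 12 higher and 1 lower. Il6, a cytokine of acute inflammation, had 8.47, 8.91 and 7.30 on the EL-4 arrays, against 4.53, 4.21 and 3.89 on the spleen arrays (4.01 ± 0.35, adjusted p = 1.35e-09). Osm, a cytokine of the interleukin 6 family, rose by 2.83 ± 0.29. Cxcl16, a transmembrane chemokine that binds CXCR6 on T cells, rose by 2.13 ± 0.20, and Il1rn, the interleukin 1 receptor antagonist, by 1.34 ± 0.24. Il1b, the main secreted interleukin 1 of myeloid cells, was not called with all arrays kept (-0.95 ± 0.26). Its levels were 11.78, 11.13 and 10.33 on the EL-4 arrays and 12.12, 12.20 and 11.76 on the spleen arrays, so replicate 1 was the highest EL-4 array. Tnf (0.93 ± 0.24), Csf1 (0.04 ± 0.21) and the interleukin 12 subunit gene Il12b (0.79 ± 0.22) were also short of a call. Cxcl14 was called at 1.03, but without replicate 1 its difference was 0.62 and the call was lost.

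Genes that mark monocyte and macrophage states of the spleen were lower in the EL-4 infiltrate. Patrolling monocytes survey vessel walls, and 7 of their 8 listed genes were called lower, with a median of -2.11 and 0 called higher. Treml4 is also on the red pulp macrophage list and Pglyrp1 on the later-granule list, so the counts of these lists share members. Treml4, a receptor of splenic myeloid cells, had 7.13, 6.81 and 7.35 on the EL-4 arrays, against 10.96, 10.63 and 11.02 on the spleen arrays (-3.77 ± 0.27). Cx3cr1, the fractalkine receptor, had 7.31, 6.94 and 7.03, against 10.42, 10.17 and 10.08 in spleen (-3.13 ± 0.23). The 2 groups did not overlap for either gene. Adgre4 (-2.81 ± 0.31) and Ace, angiotensin-converting enzyme (-2.12 ± 0.22), fell too, with the other Ace probe set at -0.43. Of 7 inflammatory monocyte genes, F13a1, a clotting factor subunit, rose by 1.45 ± 0.27, and Chil3, a chitinase-like protein, fell by 2.08. Vcan was called at 1.14 ± 0.40, but leaving out any of the 3 EL-4 arrays ended the call, and its other 7 probe sets gave -0.15 to 0.65. The mean level of that list was 10.29 to 10.72 on the EL-4 arrays and 10.35 to 10.81 on the spleen arrays.

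Red pulp macrophages clear old red cells and export their iron, and 8 of 13 listed genes were called lower and 0 higher, with a median of -1.06. Slc40a1, the iron exporter ferroportin, had 8.20, 9.06 and 8.42 on the EL-4 arrays, against 12.35, 12.03 and 11.99 on the spleen arrays (-3.56 ± 0.28, adjusted p = 1.4e-10). Hpgd, the prostaglandin-degrading dehydrogenase, had 5.88, 5.53 and 6.62, against 10.97, 11.10 and 11.27 in spleen (-5.10 ± 0.32). Spic, the transcription factor that red pulp macrophages need, had 7.55, 7.55 and 7.17, against 10.50, 10.08 and 10.80 in spleen (-3.04 ± 0.21). In none of these 3 did the arrays of the groups overlap. Cd5l was called at -1.02, yet without EL-4 replicate 1 its difference was -0.70 and the call was lost. Hmox1, heme oxygenase, was not called, at 10.48, 11.63 and 10.88 against 11.22, 10.69 and 11.12 in spleen. Dendritic cell genes were called lower for 5 of 13 and higher for 0, with a median of -0.66. Flt3, the growth factor receptor of dendritic cell precursors (-2.50 ± 0.26), Dpp4, a surface peptidase (-2.23 ± 0.28), and Zbtb46, a transcription factor of conventional dendritic cells (-1.59 ± 0.24), were among them, and for Ly6d, called at -1.54, the groups overlapped.

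Lipid-handling and cell-fusion genes of macrophages were mostly higher, with 14 of 21 called higher, 3 lower and a median of 1.59. Gpnmb, a membrane glycoprotein of lipid-laden macrophages and osteoclasts, had 11.56, 11.97 and 11.50 on the EL-4 arrays, against 5.01, 4.99 and 4.81 on the spleen arrays (6.74 ± 0.27, 107-fold). Atp6v0d2, a proton pump subunit of osteoclasts and macrophages, had 10.32, 10.95 and 10.28, against 3.85, 3.79 and 4.36 in spleen (6.52 ± 0.49). Ctsk, the collagen-cleaving cathepsin of osteoclasts, had 9.75, 10.94 and 10.12, against 4.38, 4.48 and 5.01 in spleen (5.65 ± 0.36). Each gene separated the 2 groups by more than 4 log2 units on every pair of arrays. Lpl, lipoprotein lipase, rose by 3.18 ± 0.22, Plin2, a coat protein of lipid droplets, by 2.18 ± 0.16, and Fabp5, a fatty acid carrier, by 2.08 ± 0.28. Dcstamp, which macrophages need to fuse, rose by 2.77 ± 0.28. Trem2, a lipid-sensing receptor, was called at 2.44 ± 0.25, while its other probe set gave 0.10. Plet1 was called at 3.48, but 1 of its other 2 probe sets gave -0.17. The apolipoprotein genes Apoc1 (-2.10 ± 0.27) and Apoc2 (-1.74 ± 0.28) fell, and Apoe was not called (-0.46 ± 0.31).

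Lysosomal genes beyond Atp6v0d2 and Ctsk showed smaller differences. The proton pump and cathepsin list had 7 of 23 called higher, 0 lower and a median of 0.65. Ctsl, cathepsin L, had 12.24, 12.83 and 12.51 on the EL-4 arrays, against 9.54, 9.02 and 9.62 on the spleen arrays (3.13 ± 0.19, adjusted p = 1.91e-12), with no overlap. Ctsd, cathepsin D, rose by 1.32 ± 0.16. The common pump subunits Atp6v1e1 (0.15 ± 0.13), Atp6v1b2 (0.28 ± 0.17) and Atp6v1d (0.41 ± 0.16) were not called, nor were Ctsb (0.47 ± 0.14) and Ctss (0.42 ± 0.12).

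**Figure D4:**
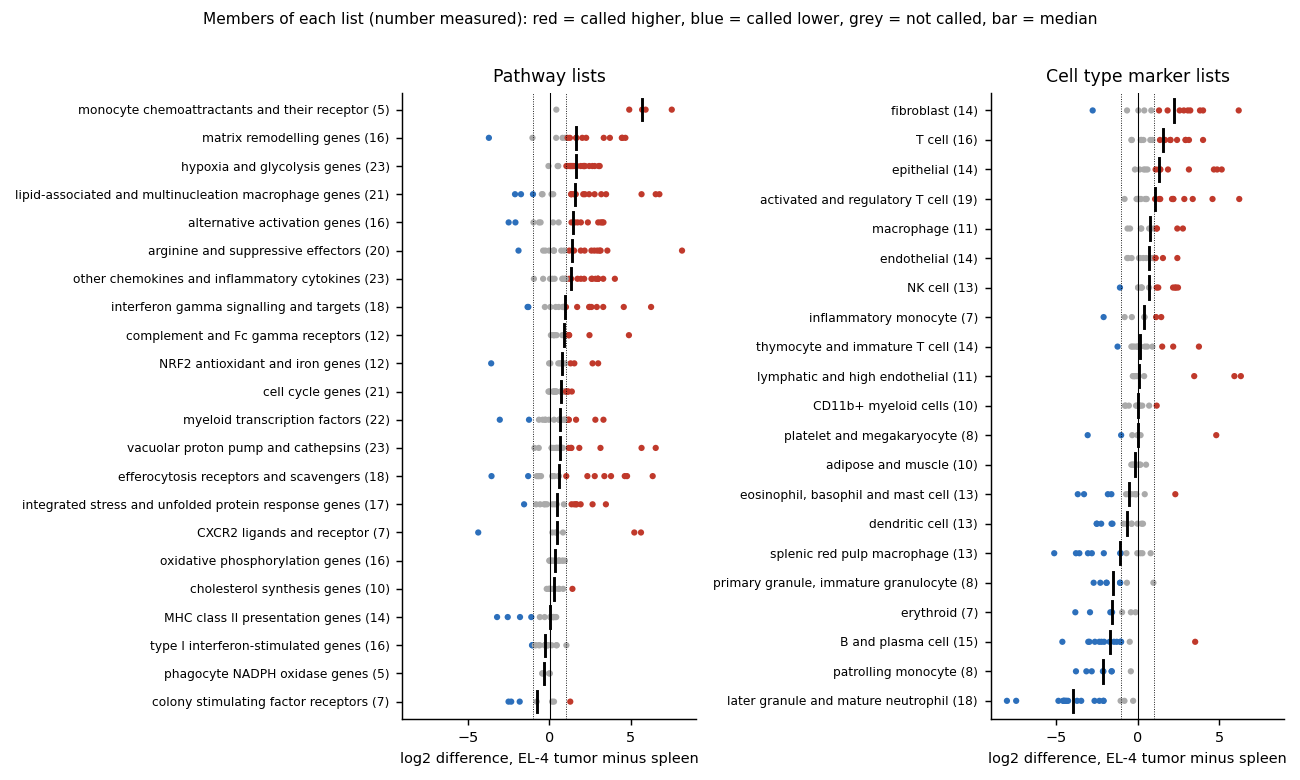
Log2 differences, EL-4 minus spleen, of the measured members of each gene list, 1 point per gene and a bar at the list's median. The chemoattractants, fibroblast and hypoxia lists lie mostly to the right of 0, the later-granule, patrolling monocyte and B cell lists mostly to the left, and oxidative phosphorylation and NADPH oxidase genes close to 0.

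Receptors that clear dead cells and debris divided between the groups. Lyve1 rose by 6.33 ± 0.41 (80.5-fold), with 8.80, 11.47 and 10.25 on the EL-4 arrays against 3.75, 3.80 and 3.98 on the spleen arrays, and by 7.02 without EL-4 replicate 1. Folr2, a folate receptor of tissue macrophages, had 9.21, 10.71 and 10.11, against 5.02, 5.11 and 5.60 in spleen (4.76 ± 0.27). Cd209f, a C-type lectin, rose by 4.62 ± 0.29, and Stab1, a scavenger receptor, by 3.37 ± 0.28. All 4 genes were lowest in replicate 1 within the EL-4 group and still above every spleen array. Dab2, an endocytic adaptor, rose by 5.51 ± 0.26, and Emp1, a membrane protein outside the list, by 5.75 ± 0.31. Gas6, a bridge between dying cells and the TAM receptors, was called at 3.78 ± 0.26, while its other probe set gave 0.16. In contrast, Stab2, a hyaluronan scavenger of splenic sinuses, had 5.54, 5.45 and 5.72, against 9.13, 8.90 and 9.31 in spleen (-3.54 ± 0.23), and Timd4, a phosphatidylserine receptor, fell by 1.30. The TAM receptor genes Mertk (-0.61 ± 0.20) and Axl (-0.68 ± 0.28) were not called. The list came to 8 of 18 higher and 2 lower, with a median of 0.57.

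C3ar1, the receptor for the complement fragment C3a, had 10.34, 10.65 and 10.54 on the EL-4 arrays, against 6.28, 4.99 and 5.64 on the spleen arrays (4.88 ± 0.29, adjusted p = 1.4e-12). Cfb, complement factor B, rose by 2.46 ± 0.22. These 2 genes were clear of the spleen arrays. C1qb, Fcgr1 and Fcgr2b, which encode a chain of the first complement component and 2 receptors for IgG, were called at 1.17, 1.19 and 1.22, although other probe sets gave values down to 0.37 for C1qb and 0.04 for Fcgr2b. After centring on housekeeping genes they stood at 0.86, 0.88 and 0.91 and were no longer called. In all, 5 of 12 complement and Fc gamma receptor genes were called higher and 0 lower, with a median of 0.89. Of 11 general macrophage genes, 4 were called higher, and Adgre1, which encodes F4/80, was not (0.21 ± 0.20).

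Genes of alternative activation, the state that interleukin 4 induces, were called higher for 9 of 16 and lower for 2, with a median of 1.46. Mgl2, a galactose-binding lectin, had 7.87, 8.05 and 7.14 on the EL-4 arrays, against 4.77, 4.25 and 4.30 on the spleen arrays (3.24 ± 0.33). Egr2, an early response transcription factor, had 9.72, 9.79 and 9.10, against 6.07, 6.47 and 6.12 in spleen (3.32 ± 0.26). Ccl24, an eosinophil attractant, rose by 2.99 ± 0.32. None of these overlapped between groups. Mrc1, the mannose receptor (0.23 ± 0.31), and Pparg, a lipid-sensing nuclear receptor (-0.97 ± 0.38), were not called. Chil3 and Cd209a, a C-type lectin, fell by 2.08 and 2.49 on the log2 scale. The genes called higher include Cdh1, which is also on the epithelial list (3.15 ± 0.47). Its EL-4 levels were 8.56, 5.76 and 6.11, highest in replicate 1, and without that replicate its difference was 2.275.

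Proteases that cut the extracellular matrix rose strongly. Mmp12, the macrophage elastase, had 11.48, 12.13 and 11.22 on the EL-4 arrays, against 6.88, 7.26 and 7.26 on the spleen arrays (4.48 ± 0.19, adjusted p = 1.07e-15). Mmp13, a collagenase, had 7.98, 9.26 and 8.01, against 4.04, 3.60 and 4.29 in spleen (4.44 ± 0.47), and Mmp19 rose by 4.66 ± 0.51. Mmp14, a membrane-bound protease that activates others, rose by 3.33 ± 0.19 and Thbs1, thrombospondin, by 3.71 ± 0.39. These 5 genes had no overlap between groups. Of 16 matrix remodelling genes, 11 were called higher, and Mmp8, the neutrophil collagenase, was the 1 called lower. The median of the list was 1.65, and Fn1, fibronectin, was not called (0.42 ± 0.32).

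Of 23 hypoxia and glycolysis genes, 20 were called higher and 0 lower, with a median of 1.64. Under low oxygen the transcription factor HIF binds a short core, ACGTG, near genes of glucose uptake, glycolysis and oxygen sensing. Egln3, a prolyl hydroxylase that marks HIF for destruction, had 8.93, 9.70 and 8.67 on the EL-4 arrays, against 6.26, 5.94 and 5.86 on the spleen arrays (3.08 ± 0.35, adjusted p = 1.1e-07). Slc16a3, the lactate exporter, had 8.72, 10.21 and 8.89, against 6.78, 6.39 and 6.73 in spleen (2.64 ± 0.35). Bnip3, a mitophagy receptor, had 10.49, 11.12 and 10.59, against 8.39, 8.23 and 8.26 in spleen (2.44 ± 0.26). Replicate 2 was the highest EL-4 array for all 3, and every EL-4 array was above every spleen array. Slc2a1, the glucose transporter GLUT1, rose by 2.18 ± 0.30, and Vegfa, the vessel growth factor, by 2.16 ± 0.38. Along the glycolytic chain, Tpi1 rose by 2.78 ± 0.14, Pgam1 by 2.11 ± 0.15, Pgk1 by 1.59 ± 0.12 and Ldha by 1.26 ± 0.13. Pfkl, the liver-type phosphofructokinase, was called at 3.02 ± 0.25, with its other 2 probe sets at 0.16 and 1.88. Hk2, Car9 and Pfkfb3 were not called, at 0.51 ± 0.20, 0.55 ± 0.18 and -0.05 ± 0.38. Gapdh, Ldha, Ndrg1 and Egln1 lost their calls when arrays were centred on housekeeping genes, which left 16 called higher.

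Promoter windows of 300 bases, from 250 before to 50 after the start, were read for these genes from the RefSeq table of build GRCm38.p6. ACGTG on either strand stood in the window of 17 of 22 hypoxia and glycolysis genes with an entry (77.3%), and of 5886 of 27025 genes in the table (21.8%). The share among list members depends on which genes were put on the list, and not on the levels measured here. Among the called members with a window, 14 of 19 held it, and the uncalled Hk2, Car9 and Pfkfb3 held it too. The windows of 4 members described above with a match, and of Pfkl as 1 of the 5 without one, are shown as examples chosen after their values were seen, with the matches in capitals; a match on the other strand reads CACGT. Egln3 is at chr12:54203825-54204124 on the minus strand, Slc16a3 at chr11:120948817-120949116 on the plus strand, Bnip3 at chr7:138909457-138909756 on the minus strand, Slc2a1 at chr4:119108495-119108794 on the plus strand and Pfkl at chr10:78009758-78010057 on the minus strand.
Egln3: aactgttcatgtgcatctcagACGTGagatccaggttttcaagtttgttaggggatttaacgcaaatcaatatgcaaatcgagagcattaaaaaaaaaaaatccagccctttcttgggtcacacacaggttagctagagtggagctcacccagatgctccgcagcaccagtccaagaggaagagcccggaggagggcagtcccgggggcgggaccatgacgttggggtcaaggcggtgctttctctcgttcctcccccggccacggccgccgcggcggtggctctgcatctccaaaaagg
Slc16a3: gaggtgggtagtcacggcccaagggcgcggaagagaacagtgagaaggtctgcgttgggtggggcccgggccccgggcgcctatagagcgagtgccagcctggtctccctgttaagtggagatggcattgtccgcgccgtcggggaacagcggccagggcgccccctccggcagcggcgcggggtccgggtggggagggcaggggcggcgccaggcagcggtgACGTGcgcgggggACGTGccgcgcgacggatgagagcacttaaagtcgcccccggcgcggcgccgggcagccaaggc
Bnip3: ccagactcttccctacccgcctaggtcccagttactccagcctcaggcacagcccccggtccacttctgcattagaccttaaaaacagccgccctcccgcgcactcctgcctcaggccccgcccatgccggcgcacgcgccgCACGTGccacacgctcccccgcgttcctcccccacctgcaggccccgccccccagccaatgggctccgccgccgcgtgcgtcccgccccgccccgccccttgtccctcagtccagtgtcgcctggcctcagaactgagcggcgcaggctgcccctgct
Slc2a1: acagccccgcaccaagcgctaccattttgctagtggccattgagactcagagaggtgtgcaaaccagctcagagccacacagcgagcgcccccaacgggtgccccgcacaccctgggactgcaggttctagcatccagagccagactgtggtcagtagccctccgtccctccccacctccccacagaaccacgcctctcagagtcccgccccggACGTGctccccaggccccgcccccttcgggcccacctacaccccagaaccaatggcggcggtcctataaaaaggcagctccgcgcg
Pfkl: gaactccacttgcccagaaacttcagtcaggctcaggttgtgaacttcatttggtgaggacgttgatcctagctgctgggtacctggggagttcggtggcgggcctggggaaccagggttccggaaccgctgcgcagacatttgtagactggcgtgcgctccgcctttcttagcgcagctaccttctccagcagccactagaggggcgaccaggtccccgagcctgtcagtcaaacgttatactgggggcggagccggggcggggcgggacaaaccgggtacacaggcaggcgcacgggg
Counted from the transcript start, the Egln3 match begins at -229 and the Slc2a1 match at -36. Slc16a3 has 2 matches, at -27 and -14, and Bnip3 has a core that reads on both strands, at -108 and -107. Such a match is a stretch of letters and not a measured binding site, and the absence of one from the window of Pfkl, Pfkp, Tpi1, Pdk1 and Adm says only that these letters are not in that window. Motifs set down for other lists were read in the same way, and their shares too depend on the choice of list genes. Later-granule genes held the C/EBP core in 1 of 16 (6.25%, against 2.38% of all genes) and the C/EBP palindrome in 0 of 16 (against 0.207%). The GAS motif stood in 4 of 16 interferon gamma genes (25%, against 9.55%). The ISRE stood in 5 of 11 type I interferon genes (45.5%, against 3.99%), and the CLEAR core in 4 of 15 proton pump and cathepsin genes (26.7%, against 2.55%).

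Interferon gamma and several of its targets were higher. Ifng, the cytokine itself, made by T and NK cells, had 9.37, 9.70 and 10.07 on the EL-4 arrays, against 3.69, 3.75 and 2.99 on the spleen arrays (6.23 ± 0.24, 75.2-fold, adjusted p = 2.43e-16). Gbp2b, a guanylate-binding protein of cell-autonomous defence, had 9.16, 7.87 and 9.43, against 4.64, 3.67 and 4.47 in spleen (4.56 ± 0.31). Cxcl9, a T cell attractant that interferon gamma induces, had 12.05, 11.84 and 12.19, against 8.78, 8.48 and 8.92 in spleen (3.30 ± 0.44). The arrays of the groups were apart for all 3, and replicate 2 was the lowest EL-4 array for Gbp2b and Cxcl9. Iigp1, an immunity-related GTPase, rose by 2.91 ± 0.41 and Socs1, a feedback inhibitor, by 2.44 ± 0.34. On the receptor side, Ifngr1 fell by 1.33 and Jak2, the kinase bound to the receptor, by 1.29. Of 18 genes, 9 were called higher and 2 lower, with a median of 0.95. The antigen-processing genes Tap1 (0.88 ± 0.25), Psmb8 (0.58 ± 0.15) and Psmb9 (0.39 ± 0.17) were not called.

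Of 16 genes that answer mainly to type I interferon, 0 were called higher and 2 lower, with a median of -0.27. Isg20, a nuclease, was at 8.05, 7.63 and 7.92 on the EL-4 arrays, against 9.03, 8.59 and 9.08 on the spleen arrays (-1.03 ± 0.23), and its call was lost without EL-4 replicate 2 (-0.91) and without spleen replicate 1 (-0.97) or 3 (-0.94). Ifit3 was at 8.25, 8.65 and 9.04, against 9.51, 9.58 and 10.04 in spleen (-1.06 ± 0.30), and its call was lost without EL-4 replicate 1 (-0.86) and without spleen replicate 3 (-0.90). Irf7, the main inducer of these genes, was not called (0.43 ± 0.27).

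None of the classical MHC class II genes was called, whereas H2-Oa, H2-Ob and H2-DMb2, genes of the peptide editors, fell. No other peptide editor gene on the list was called. H2-Ab1, H2-Aa and H2-Eb1, the chains that present peptides, differed by 0.36 ± 0.21, 0.06 ± 0.26 and 0.25 ± 0.23, and Cd74, the invariant chain, by 0.18 ± 0.15, none of them called. H2-Oa, which with H2-Ob limits peptide exchange and is known mainly from B cells, had 7.82, 6.95 and 7.49 on the EL-4 arrays, against 10.48, 10.63 and 10.76 on the spleen arrays (-3.20 ± 0.22). H2-Ob fell by 2.55 and H2-DMb2, part of the exchange factor, by 1.80. Cd83, a marker of maturing dendritic cells, was called at -1.11 ± 0.33, and the call was lost without EL-4 replicate 3 (-0.90) and without spleen replicate 3 (-0.99). With these, 4 of 14 genes were called lower and 0 higher, with a median of 0.06.

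Amino acid stress genes rose in part. Atf3, a stress-induced transcription factor, had 11.01, 10.94 and 10.21 on the EL-4 arrays, against 7.38, 7.31 and 7.09 on the spleen arrays (3.46 ± 0.26, adjusted p = 9.69e-11). Slc7a11, which imports cystine, had 7.72, 8.09 and 7.66, against 5.42, 4.96 and 5.15 in spleen (2.65 ± 0.27), and Asns, asparagine synthetase, rose by 1.92 ± 0.24. None of the 3 overlapped. The branch through the chaperone Hspa5 did not reach a call (0.19 ± 0.15), nor did Ddit3 (-0.26 ± 0.18), and Ddit4, an inhibitor of mTOR signalling, fell by 1.55. The list held 7 of 17 called higher and 1 lower, with a median of 0.45. Among 12 NRF2 and iron genes, Slc7a11, Gclm (1.53 ± 0.29), Txnrd1 (1.30 ± 0.16) and Srxn1 (2.99 ± 0.23) were called higher, although 1 other Srxn1 probe set gave 0.29, and Slc40a1 was called lower. Txnrd1 stood at 0.99 after housekeeping centring and was no longer called.

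Several core functions had few or no calls. The 5 genes of the phagocyte NADPH oxidase, which makes superoxide, had 0 calls and a median of -0.33, with Cybb, its catalytic chain, at 11.76, 11.50 and 11.87 on the EL-4 arrays and 11.77, 11.66 and 11.60 on the spleen arrays. The other members differed by -0.01 ± 0.13 (Cyba), -0.33 ± 0.18 (Ncf1), -0.42 ± 0.12 (Ncf4) and -0.44 ± 0.22 (Rac2). Oxidative phosphorylation genes had 0 of 16 called and a median of 0.37, and cholesterol synthesis genes 1 of 10 called, Dhcr7 (1.41 ± 0.21), with a median of 0.27. Of 21 cell cycle genes, 5 were called higher, among them Bub1 (1.38 ± 0.33) and Mcm6 (1.16 ± 0.24), with a median of 0.70, and 1 was left after housekeeping centring. Other probe sets gave 0.47 for Bub1 and values down to 0.30 for Mcm6, and with the mean of all probe sets both fell short of a call, at 0.92 and 0.95. Mki67, a marker of cycling cells, was at 9.12, 9.05 and 9.25 on the EL-4 arrays and 9.12, 9.24 and 8.93 on the spleen arrays.

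Among 22 myeloid transcription factors, 6 were called higher and 2 lower, with a median of 0.65. Egr1, an early response factor, had 12.38, 12.13 and 11.93 on the EL-4 arrays, against 9.01, 10.65 and 8.31 on the spleen arrays (2.82 ± 0.41). Cebpa, which drives granulocyte and monocyte fate, had 9.93, 10.22 and 9.80, against 8.25, 8.47 and 8.31 in spleen (1.64 ± 0.21). The groups were separate in both. Irf8, which favours monocytes over granulocytes, was called at 1.05 ± 0.26, but not without EL-4 replicate 3 (0.97) nor after housekeeping centring (0.74), and its other probe set gave 0.43. Cebpd, a factor of granulocyte maturation, fell by 1.25, and was not called with the mean of its probe sets (-0.91). Of 7 growth factor receptors, Csf2rb2 was called higher (1.28 ± 0.18, and 0.97 and no longer called after housekeeping centring), and Kit (-1.82 ± 0.33), Csf3r and Flt3 were called lower. Csf2ra and Csf2rb, chains of the GM-CSF receptor, were not called (0.28 ± 0.23 and 0.17 ± 0.12). Csf1r, the macrophage growth factor receptor, was at 12.34, 12.42 and 12.51, against 13.20, 13.15 and 13.24 in spleen (-0.78 ± 0.12), short of 2-fold, and passed at -1.09 after housekeeping centring.

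Markers of cell types other than myeloid cells moved with these differences, and their part in the results above was not tested. EL-4 is itself a T cell line, and RNA of tumor cells, of infiltrating T cells and of CD11b+ cells cannot be told apart on these arrays. Thy1, a surface protein of T cells and fibroblasts, had 9.50, 9.98 and 9.79 on the EL-4 arrays, against 5.51, 5.85 and 5.86 on the spleen arrays (4.02 ± 0.30). Cd3g, a chain of the T cell receptor complex, had 8.03, 8.60 and 8.35, against 5.18, 5.45 and 5.48 in spleen (2.96 ± 0.18). Cd8b1, a chain of the CD8 coreceptor, had 8.11, 7.78 and 8.02, against 5.06, 4.75 and 5.27 in spleen (2.94 ± 0.18). The groups were apart for all of them. T cell genes were called higher for 9 of 16 and lower for 0, with a median of 1.53, and a mean level of 7.36 to 7.57 in EL-4 tumors and 5.88 to 6.06 in spleen. Cd4 (-0.35 ± 0.20) and Cd8a (0.24 ± 0.24) were not called, though the other Cd8a probe sets gave 1.22 to 2.26.

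Genes of activated T cells were called higher for 10 of 19 and lower for 0, with a median of 1.08. Gzmb, a granzyme of killer cells, had 10.86, 10.58 and 10.94 on the EL-4 arrays, against 6.78, 5.84 and 5.97 on the spleen arrays (4.60 ± 0.26). Pdcd1, which encodes PD-1, had 6.23, 6.75 and 6.59, against 3.19, 3.04 and 3.19 in spleen (3.38 ± 0.20), and Ctla4 rose by 2.87 ± 0.29. In all of them the lowest EL-4 array was above the highest spleen array. Foxp3, the regulatory T cell factor, differed by 0.00 ± 0.20. Prf1, perforin, was called at 2.18, while its other probe set gave -0.13. The thymocyte genes Rag1 (0.01 ± 0.20), Rag2 (-0.18 ± 0.20), Dntt (0.18 ± 0.20) and Ptcra (0.09 ± 0.28) were not called, while Gata3, a T cell and epithelial factor, was called at 3.76, with 8.81, 6.13 and 6.56 on the EL-4 arrays, and at 2.94 without replicate 1. Cd27, a costimulatory receptor (2.19 ± 0.21), and Notch3 (1.51 ± 0.33, and 0.87 and not called without EL-4 replicate 1) were the other thymocyte genes called higher of 14, and Satb1, a chromatin organiser, was called lower (-1.22 ± 0.39). The list's median was 0.14, or -0.17 after housekeeping centring, and other Satb1 probe sets gave up to 0.01. The Satb1 call was lost without EL-4 replicate 2 (-1.12) and without spleen replicate 2 (-1.09) or 3 (-1.21). NK cell genes had 6 of 13 called higher and 1 lower, with Il2rb (2.48 ± 0.30), Nkg7 (2.35 ± 0.25) and Xcl1 (2.30 ± 0.25) higher, Klrd1 lower (-1.08 ± 0.30), and the NK receptor Ncr1 not called (0.04 ± 0.28). After housekeeping centring 4 were higher, and the Klrd1 call was lost without EL-4 replicate 2 (-0.86) and without spleen replicate 2 or 3 (both -0.99).

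B cell and plasma cell genes went the other way, with 13 of 15 called lower, 1 higher and a median of -1.71. Igha, the IgA heavy chain, had 8.45, 7.13 and 6.77 on the EL-4 arrays, against 12.15, 11.82 and 12.19 on the spleen arrays (-4.61 ± 0.41). Cr2, a complement receptor of B cells, had 4.69, 5.02 and 4.73, against 8.04, 7.53 and 7.91 in spleen (-3.02 ± 0.22). Neither overlapped between the groups. Ighm fell by 2.61 on its brightest probe set, and 5 of its other 10 probe sets went the opposite way, up to 2.74. Sdc1, a proteoglycan of plasma cells and epithelia, rose by 3.53 ± 0.28. Without EL-4 replicate 1, Cd79a and Fcer2a lost their calls. Erythroid genes were called lower for 4 of 7, such as Alas2, the first enzyme of heme synthesis in red cells (-3.81 ± 0.46). Among eosinophil, basophil and mast cell genes, 4 of 13 were called lower, with Prg2, an eosinophil granule protein, at -3.66 ± 0.43, and Cpa3, a mast cell protease, was the 1 called higher (2.32 ± 0.28). In the platelet list, Pf4, a chemokine of platelets that some macrophages also make, had 10.82, 11.53 and 11.16 on the EL-4 arrays, against 6.37, 6.02 and 6.65 on the spleen arrays (4.82 ± 0.32), while the platelet genes Gp5 (0.03 ± 0.25), Gp9 (-0.33 ± 0.25) and Itga2b (-0.01 ± 0.26) were not called. Clec1b, a lectin of platelets (-3.05 ± 0.32), and Itgb3, an integrin chain (mean log2 level 5.82 in EL-4 and 6.82 in spleen), were called lower. This made 1 of 8 higher and 2 lower, with a median of 0.01, or -0.30 after housekeeping centring. Itgb3 lost its call without EL-4 replicate 3 (-0.91) or spleen replicate 2 (-0.87), and its other probe set gave -0.09.

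Stromal genes were higher in the EL-4 infiltrate. Col3a1, a fibrillar collagen chain, had 9.48, 10.59 and 9.94 on the EL-4 arrays, against 3.80, 3.82 and 3.79 on the spleen arrays (6.20 ± 0.52, 73.5-fold). Col6a3 rose by 3.83 ± 0.30 and Postn, a matrix protein of activated fibroblasts, by 2.84 ± 0.26, while Pdgfra (0.05 ± 0.26) and Pdgfrb (0.41 ± 0.18) were not called. Fibroblast genes came to 9 of 14 called higher and 1 lower, with a median of 2.21 and a mean level of 6.94 to 7.17 in EL-4 tumors against 5.03 to 5.17 in spleen. Glycam1, a mucin of high endothelial venules, had 10.81, 8.66 and 9.98, against 3.94, 3.87 and 3.84 in spleen (5.94 ± 0.62), and Pdpn, podoplanin, rose by 3.47 ± 0.19. With Lyve1 these were the 3 of 11 lymphatic and high endothelial genes called higher, 0 were called lower, and the median was 0.06, or -0.25 after housekeeping centring. The lymphatic factor Prox1 was at 2.94, 2.82 and 2.79, against 2.85, 3.74 and 2.84 in spleen. Of 14 endothelial genes 5 were called higher, with Emcn, an endothelial sialomucin, at 2.44 ± 0.32, and 2 were left without EL-4 replicate 1. Adipose and muscle genes had 0 of 10 called.

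Epithelial genes were called higher for 9 of 14, with a median of 1.34, and for 5 of 14 without EL-4 replicate 1. Krt8, Krt18 and Krt19 were called at 4.88 ± 0.57, 4.68 ± 0.60 and 5.16 ± 0.59, and at 3.66, 3.40 and 3.94 without that replicate. These SEs pool the spread over all 10 groups, whereas the standard deviation of the 3 EL-4 arrays alone was 2.21, 2.34 and 2.19. Krt7, Krt14, Cldn3 and Cldn4 lost their calls without EL-4 replicate 1. For Krt7 the groups overlapped (8.97, 5.19 and 6.14 on the EL-4 arrays, 5.41, 5.25 and 5.45 on the spleen arrays). The mean level of the list was 8.32, 5.91 and 6.42 in EL-4 replicates 1 to 3, and 4.95 to 5.03 on the spleen arrays. Epcam was not called (0.13 ± 0.28), though its other probe set gave 1.89.

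Mycn, an oncogene of the Myc family that adult myeloid cells are not known for, rose by 5.77 ± 0.29 (54.4-fold, adjusted p = 2.9e-14). Its brightest probe set had 11.38, 12.87 and 11.94 on the EL-4 arrays, against 6.27, 6.14 and 6.49 on the spleen arrays. The other 2 Mycn probe sets gave 0.19 and 0.21, neither of them called. On the brightest probe set, the CD11b+ infiltrate of C26-GM tumors in BALB/c mice had 9.43, 9.63 and 10.32, and no array of the 8 groups outside these tumors exceeded 7.52. Whether the 3 probe sets read different transcripts was not tested.

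The CD11b+ infiltrate of MCA203 tumors comes, like that of EL-4, from tumors of C57BL/6 mice, with a different tumor line. Tumor site, time after injection and array group may differ as well, and cannot be told apart from the line. Between EL-4 and MCA203, 961 genes (5.28%) were called, 706 higher (3.88%) and 255 lower (1.40%) in EL-4. The all-gene median was -0.08, and after housekeeping centring 451 were higher and 503 lower, which put the share of higher calls at 47.3% in place of 73.5%. Mycn had 11.38, 12.87 and 11.94 on the EL-4 arrays, against 6.36, 6.39 and 6.50 on the MCA203 arrays (5.65 ± 0.29, adjusted p = 1.94e-13). Cd5l, a secreted scavenger protein of tissue macrophages, had 10.06, 10.77 and 11.26, against 5.34, 5.25 and 5.44 in MCA203 tumors (5.36 ± 0.33). Jchain, which joins IgA and IgM units, had 9.40, 9.15 and 10.12, against 3.85, 5.59 and 4.06 in MCA203 tumors (5.06 ± 0.41). These groups were apart for all 3, and for Cd5l and Jchain it was the MCA203 arrays that lay far below spleen. Lyve1 (5.14 ± 0.41), Gpnmb (5.07 ± 0.27) and Atp6v0d2 (5.18 ± 0.49) were also among the 6 largest differences toward EL-4.

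In the other direction, the granzyme genes Gzmd, Gzmf and Gzmg were lower in EL-4 than in MCA203 tumors. Gzmd had 2.43, 2.50 and 2.33 on the EL-4 arrays, against 8.70, 10.16 and 8.35 on the MCA203 arrays (-6.65 ± 0.27, adjusted p = 2.06e-15). Gzmg and Gzmf stood at -4.61 ± 0.38 and -4.31 ± 0.24. Cx3cr1 had 7.31, 6.94 and 7.03, against 11.47, 10.89 and 11.09 in MCA203 tumors (-4.06 ± 0.23), and Olfml3, a secreted matrix protein, 5.29, 5.15 and 5.14 against 9.94, 8.89 and 9.04 (-4.09 ± 0.24). For all of them no array of one tumor reached the other. Klra17, a lectin-like receptor, was lower by 4.17 log2 units.

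By list, B cell genes were called higher than in MCA203 for 10 of 15 and lower for 0, with a median of 2.02. The lipid-associated macrophage list was higher for 12 of 21 and lower for 1 (median 1.26). Alternative activation genes were higher for 11 of 16 and lower for 0 (median 1.43). Without EL-4 replicate 1 they were higher for 9 and lower for 1, and after housekeeping centring higher for 9 and lower for 2. Red pulp macrophage genes were higher for 7 of 13 and lower for 1 (median 1.08), or 4 of 13 higher after housekeeping centring. Type I interferon-stimulated genes were lower for 8 of 16 and higher for 0 (median -1.05), for 5 of 16 without EL-4 replicate 1 and for 12 of 16 after housekeeping centring. Many differences from spleen were common to both tumors. Of the 1968 genes called between EL-4 and spleen, 1087 were also called in the same direction between MCA203 and spleen, and the rest were not. In MCA203 tumors Arg1 differed from spleen by 6.81 and Camp by -7.74, and the later-granule list had a median of -4.15. The EL-4 and MCA203 tumors were each set against the same 3 spleen arrays, so their own differences from spleen share those arrays.

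**Figure D5:**
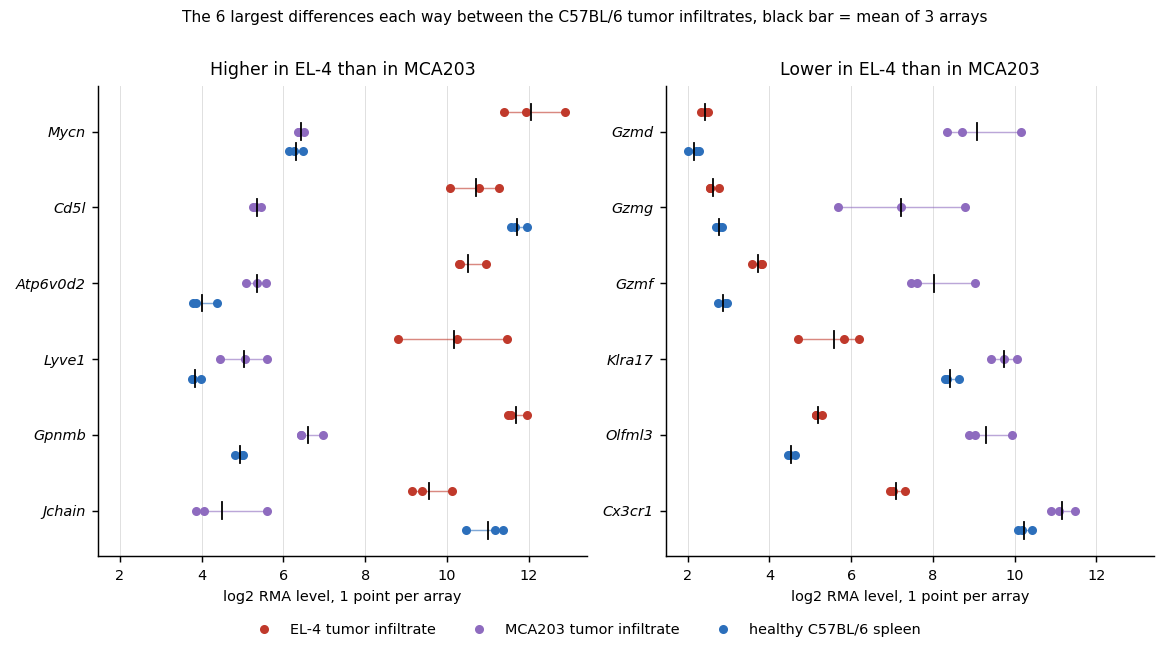
Log2 RMA level on each array of EL-4 tumors, MCA203 tumors and healthy spleen for the 6 largest EL-4 minus MCA203 differences in each direction. Mycn, Lyve1, Gpnmb and Atp6v0d2 are highest in EL-4 tumors, Cd5l and Jchain are lowest in MCA203 tumors, and Gzmd, Gzmf, Gzmg and Olfml3 are highest in MCA203 tumors, of the 3 groups drawn.

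The tumor-minus-spleen difference of EL-4 was set against that of 4T1, which uses BALB/c spleen as its own baseline. Strain, tumor line and array group change together here and cannot be told apart. The 2 differences were unlike each other by the called amount for 982 genes (5.40%), 549 with a larger value in EL-4 (3.02%) and 433 with a smaller one (2.38%). Ifng differed most, with 6.23 for EL-4 and -1.11 for 4T1, a gap of 7.34 ± 0.34 (adjusted p = 3.67e-14). Its levels in 4T1 tumors were 2.85, 2.76 and 2.78, against 4.21, 3.39 and 4.11 in BALB/c spleen. The granzyme genes Gzma and Gzmb were also among the 6 largest, with 1.27 and 4.60 for EL-4 and -5.35 and -1.71 for 4T1. Lpl stood at 3.18 for EL-4 and -3.26 for 4T1 (gap 6.44 ± 0.31). Ngp fell in both, by 7.44 in EL-4 and by 2.13 in 4T1 (gap -5.31 ± 0.54), with levels of 10.51, 11.38 and 11.42 in 4T1 tumors.

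By list, the EL-4 difference was above the 4T1 difference for 12 of 16 T cell genes (median gap 2.54), 12 of 19 activated T cell genes (1.75), 10 of 13 NK cell genes (2.75) and 10 of 15 B cell genes (1.89), with 0 below in each. Later-granule neutrophil genes were below for 11 of 18 and above for 1, with a median gap of -2.52. Epithelial genes had 1 of 14 above and 1 below, and without EL-4 replicate 1 they had 0 above and 7 below.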

How the data were processed

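The authors deposited log2 RMA values of 45101 probe sets for Affymetrix mouse arrays hybridised with labelled cRNA of CD11b+ cells, and RMA is named in the submitters' processing notes with its version not given in the sources used here. The analysis kept the 34958 probe sets with 1 gene symbol in the platform annotation (9211 had none and 932 several), each gene being read from its brightest probe set (by its mean in the 30 arrays), for 18194 genes in all. Where a gene has several probe sets, a value near 0 or of opposite sign on another probe set is given for printed EL-4 minus spleen differences of at least 1 log2 unit. For smaller differences it is given only in part. No level was compared between probe sets. limma 3.58.1 (R 4.3.3) fitted 1 model with a mean for each of 10 groups over 30 arrays, with Benjamini-Hochberg adjustment over all genes; a call needed an adjusted p below 0.05 and a 2-fold difference. Tables and figures were made with Python 3.11.15, pandas 2.3.3, numpy 2.4.6 and matplotlib 3.10.9. Each SE and p-value rests on the spread of the gene pooled over all 10 groups (20 residual degrees of freedom), and not on the compared arrays alone. The number of arrays, 3 per group, limits the precision.

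The genes named are the 15 largest rises and 15 largest falls with non-overlapping arrays, predicted transcripts and receptor segments passed over, a panel of MDSC genes, up to 4 called members of each of 43 gene lists in each direction, all members of lists of 7 or fewer, and the 6 largest differences each way from MCA203 and from 4T1. Further list members were named after their values were seen. The groups, lists and panel were chosen with earlier results of these data known. Alternatives covered centring on housekeeping genes, quantile normalisation, the choice of probe set, dim and cross-hybridising probe sets, the prior, array weights, the thresholds, a replicate block and leaving out each array. The fit was tested on simulated data. The gene set of the report is described by counts and medians, without a set test. Some genes, such as Chil3, are on several lists, so the counts of different lists are not independent.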

Additional observations from a re-analysis of the deposited data

Results flagged for a closer look

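Differences between EL-4 and other tumors were tested directly, and 961 genes differed between the EL-4 and MCA203 infiltrates. Toward EL-4, the values on the log2 scale were 5.65 for Mycn, 5.36 for Cd5l, 5.18 for Atp6v0d2, 5.14 for Lyve1, 5.07 for Gpnmb and 5.06 for Jchain. Toward MCA203, they were -6.65 for Gzmd, -4.61 for Gzmg, -4.31 for Gzmf, -4.17 for Klra17, -4.09 for Olfml3 and -4.06 for Cx3cr1.

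The tumor-minus-spleen difference was not the same in EL-4 as in 4T1 for 982 genes. The gap, EL-4 minus 4T1, was 7.34 for Ifng, 6.62 for Gzma, 6.44 for Lpl, 6.31 for Gzmb, 5.99 for Mycn and 5.46 for Jchain. For Jchain, the difference from spleen was -1.44 in EL-4 and -6.91 in 4T1. In the other direction the gap was -5.49 for Moxd1, -5.45 for Dmp1, -5.31 for Ngp, -4.98 for Pdgfrl, -4.96 for Nt5e and -4.92 for Hmga2. Moxd1, Dmp1, Pdgfrl and Hmga2 were not called in EL-4 (0.78, 0.11, -0.19 and -0.65) and had differences of 6.27, 5.55, 4.79 and 4.27 in 4T1. Nt5e, the adenosine-making enzyme, had 10.03, 10.12 and 10.14 in 4T1 tumors, against 3.76, 4.00 and 3.99 in BALB/c spleen.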

How the results depend on the processing

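For EL-4 against spleen, testing every probe set gave 3780 calls (2124 higher, 1656 lower) and dropping the 2-fold rule 4577 (2771 higher, 1806 lower), in place of 1968. For EL-4 against MCA203 these settings gave 1673 and 2731 in place of 961, and for the gap to 4T1 they gave 1638 and 1309 in place of 982, an adjusted p below 0.01 gave 684 and array weights 1337. Centring on housekeeping genes gave 2112, 954 and 1052 calls, with 37.8% of the last higher in place of 55.9%. Leaving out 1 array gave 1844 to 2025, 867 to 1041 and 828 to 1035 calls. Of 208 gene results, 171 kept their direction and side of the threshold under all alternatives run. Ighm reversed to 0.53 with the mean of all its probe sets, and Plet1 and Prf1 to -0.17 and -0.13 without probe sets that may cross-hybridise, since these settings use other probe sets of the gene. Deviations of same-numbered EL-4 and spleen arrays correlated at -0.03, 0.01 and 0.02, and those of EL-4 and MCA203 arrays at -0.07, -0.12 and 0.11. With 3 arrays per group such values cannot decide whether the replicate numbers pair the samples. A replicate block gave 1966, 958 and 950 calls. The 3 arrays per group, an enrichment of unstated purity and a spleen baseline for a tumor limit all comparisons.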
